A study of Drosophila melanogaster with 24 samples.

Results

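Heads of male flies carrying a neuronal amyloid transgene (AD) were compared with heads of wild type flies (WT) at day 10 post eclosion. The comparison rests on the libraries labelled as AD and WT of that day, 3 per genotype and 6 of the 24 libraries in the series, which also covers days 3, 20, and 30. Per the paper's methods, AD flies expressed human Aβ under control of the pan-neuronal driver elav-GAL4, and the transgene line had the background of the white mutant control strain. WT flies were the offspring of that white mutant strain and the same driver line, so that both genotypes carried the driver. The sample labels call the AD genotype "hAPP transgenic", and the transgene itself is not in the fly annotation and was not analysed here. Each library came from a pool of many heads, and nothing in the labels tells whether the 3 pools of a genotype came from separate cultures. The p-values therefore measure only the spread between pools, which the main fit estimated over all 24 libraries of the series. In pooled heads, fewer cells of a type and less RNA per cell cannot be told apart.

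Aβ is a short peptide cut from the amyloid precursor protein, and it aggregates outside and inside neurons. In flies the peptide is usually made with a secretion signal and enters the endoplasmic reticulum (ER), where the chaperone *Hsc70-3* (the fly BiP), its co-chaperones, and protein disulfide isomerases fold secreted proteins. Antimicrobial peptides (AMPs) are secreted effectors of innate immunity, made mainly in fat body under control of the Toll and immune deficiency (IMD) pathways, and head samples contain fat body beside brain, eye, and muscle.

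Total expected counts were between 12884945 and 24254703 per library at day 10. Replicate 1 of both genotypes belonged to another processing run than replicates 2 and 3, recognized by the lengths of genes that the authors had added to the annotation, and was sequenced deeper. The 5 neuronal and 5 photoreceptor markers were detected in all 6 libraries. None of the neuronal, photoreceptor, glial, fat body, hemocyte, or midgut markers had an unadjusted p under 0.05. Of the 5 muscle markers all were lower in estimate in AD heads, 1 (*Act88F*, -1.42) had an unadjusted p under 0.05, and 0 were at 0 in any library. Their sum was 39697 to 53385 normalized counts in WT heads and 34503 to 38313 in AD heads, without overlap, and their part in the results was not tested. The male reproductive tract markers summed to 214 normalized counts in AD replicate 1 and to between 1.29 and 21.1 in the other 5 libraries, and of these markers *dj* had an unadjusted p under 0.05 with a higher estimate in AD heads. In AD replicate 1, 149 genes reached 20 normalized counts or more while staying at 3 or fewer in the other 5 libraries, among them the testis genes *S-Lap3*, *dj*, and *w-cup*. Between 0 and 2 such genes were found in each of the other libraries.

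At day 10, 18 of the 10479 tested genes passed the threshold (absolute log2 fold change over 1 and FDR under 0.05 in edgeR's quasi-likelihood test), which is 0.172% of the genes tested. Of these, 9 were higher in AD flies (0.0859%) and 9 were lower (0.0859%), and 13 of the 18 were not AMP genes. The higher genes were *w*, *Cyp6a2*, *MFS3*, *Ldh*, *CG14329*, *Cyp6w1*, *Sil1*, *CG8620*, and *Strica*. The lower genes outside the AMP list were *CG43920*, *Cyp6a16*, *IM18*, and *Diedel*. For all 18 genes the AD and WT libraries did not overlap, where 3.63% of all tested genes had every AD library above every WT library and 2.86% had every AD library below. The median log2 fold change of all tested genes was -0.007, and 320 genes (3.05%) had an unadjusted p under 0.05.

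**Figure D1:**
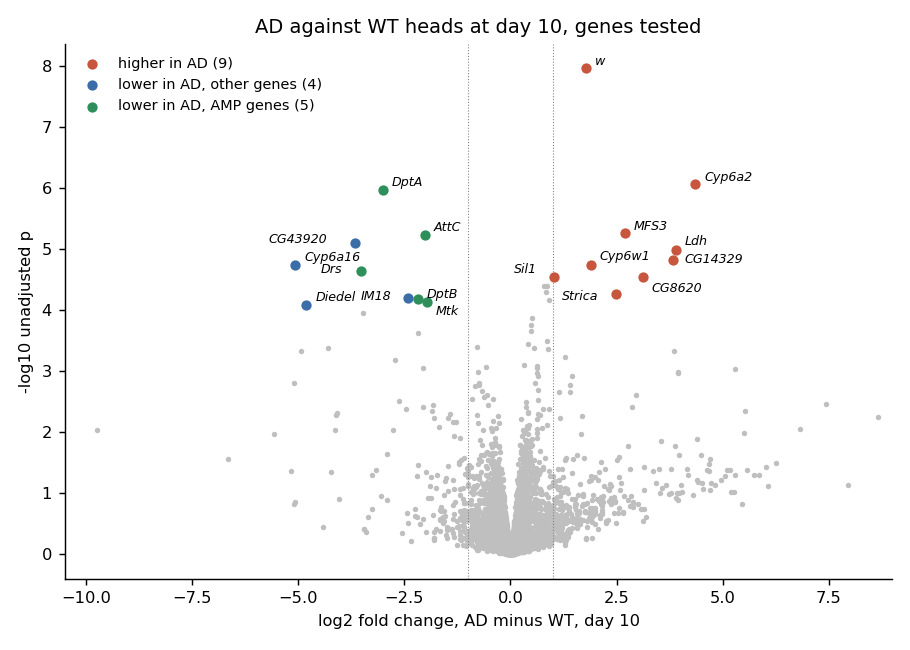
Each point is a tested gene, with the log2 fold change of AD against WT heads at day 10 on the x axis and -log10 of the unadjusted p on the y axis, and dotted lines mark an absolute log2 fold change of 1. The 9 higher genes, the 4 lower genes outside the AMP list, and the 5 lower AMP genes that passed the threshold are coloured and named.

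*Sil1*, which acts in folding of secreted proteins, rose past the threshold in AD heads, and 3 further ER genes rose by less than the fold limit. In the ER stress list, 1 of 13 tested genes passed the threshold (0.0859% of all tested genes were higher past it). An unadjusted p under 0.05 with a higher level was found in 7 of 13 (1.81% of all tested genes). In 7 of 13 every AD library lay above every WT library (3.63% of all). The median log2 fold change of the list was 0.36, against -0.007 for all genes. Like the other lists, it was chosen with earlier results of these data known, so its counts are a description. *Sil1* encodes a nucleotide exchange factor that recycles BiP (chr3R:25233636-25235529, minus strand). Its normalized counts were 320, 291, and 326 in WT replicates 1 to 3 and 632, 664, and 604 in AD replicates 1 to 3. Every AD library was above every WT library, with a log2 fold change of 1.02 ± 0.19 (SE) and an FDR of 0.0233. *Sil1* passed in 0 of the 6 fits that each left out a day 10 library, with FDRs of 0.0932 to 0.155.

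Another 4 genes had an FDR under 0.05 with a log2 fold change under 1, and 3 of them also act in the ER. *Ero1L*, the oxidase that drives disulfide formation, had normalized counts of 650, 598, and 458 in WT heads and 1031, 981, and 1021 in AD heads (log2 fold change 0.83 ± 0.16, FDR 0.0325). *CaBP1*, a protein of the disulfide isomerase family, had 1217, 1181, and 1220 in WT heads and 1924, 2173, and 2432 in AD heads (0.85 ± 0.16, FDR 0.0281). *P58IPK*, a co-chaperone of BiP, had 1165, 966, and 1115 in WT heads and 1698, 1735, and 2169 in AD heads (0.79 ± 0.15, FDR 0.0281). The lowest AD library of each of these genes was above the highest WT library. *P58IPK* overlaps *bocks* on the opposite strand by 114 bases, and the libraries did not keep strand, so reads in that stretch cannot be told apart. The remaining gene was *cv-2*, which encodes a secreted protein that binds BMP ligands, with 384, 427, and 306 in WT heads and 726, 658, and 713 in AD heads (0.91 ± 0.18, FDR 0.0359).

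The chaperones themselves had larger estimates and a larger spread. *Hsc70-3* (BiP) had normalized counts of 8868, 4918, and 3922 in WT heads and 19795, 12129, and 12191 in AD heads. The groups did not overlap, and replicate 1 was the highest library in both genotypes. Its log2 fold change of 1.32 ± 0.55 did not pass the threshold, with an FDR of 1.0. *Gp93*, the ER member of the Hsp90 family, had 3832, 2503, and 2073 in WT heads and 7377, 5780, and 5725 in AD heads (1.17 ± 0.38, FDR 0.664). In a fit on the second processing run alone, *Gp93* passed the threshold with an FDR of 0.0487. *Herp* and *Der-1*, which act in degradation of misfolded ER proteins, and *Calr*, the fly calreticulin, had estimates of 0.42, 0.36, and 0.43. None of them passed the threshold, and the FDR of *Herp* was 0.623. Their AD libraries lay above their WT libraries (3.63% of all tested genes). *Hsc70-3*, *Der-1*, and *Calr* were named after their values were seen. The sensors and transcription factors of the unfolded protein response (*Ire1*, *PEK*, *Atf6*, *Xbp1*, and *crc*) had log2 fold changes between -0.04 and 0.13, and their libraries overlapped.

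A longer list of 37 genes for ER translocation, glycosylation, and folding was drawn up after these values were seen, and it is given as a description. None of the 37 passed the threshold, and 33 had a positive estimate (48.1% of all tested genes). In 8 of the 37, the AD libraries lay above the WT libraries (3.63% of all). It holds *CaBP1* and *P58IPK*, and also *Manf*, named after its values were seen, an ER-resident neurotrophic factor, with 696, 571, and 865 normalized counts in WT heads and 1151, 1384, and 1457 in AD heads (0.91 ± 0.28, FDR 0.581). Of 18 tested heat shock protein genes 0 passed the threshold in edgeR or DESeq2, 1 had an unadjusted p under 0.05 in edgeR (3.05% of all tested genes), and the median was 0.03. The gene with an unadjusted p under 0.05 was *Hsp70Bb*, a copy of the inducible Hsp70 family, with 0, 52.3, and 63.6 normalized counts in WT heads and 30.4, 440, and 296 in AD heads. Its groups overlapped, and the nearly identical Hsp70 copies share reads.

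**Figure D2:**
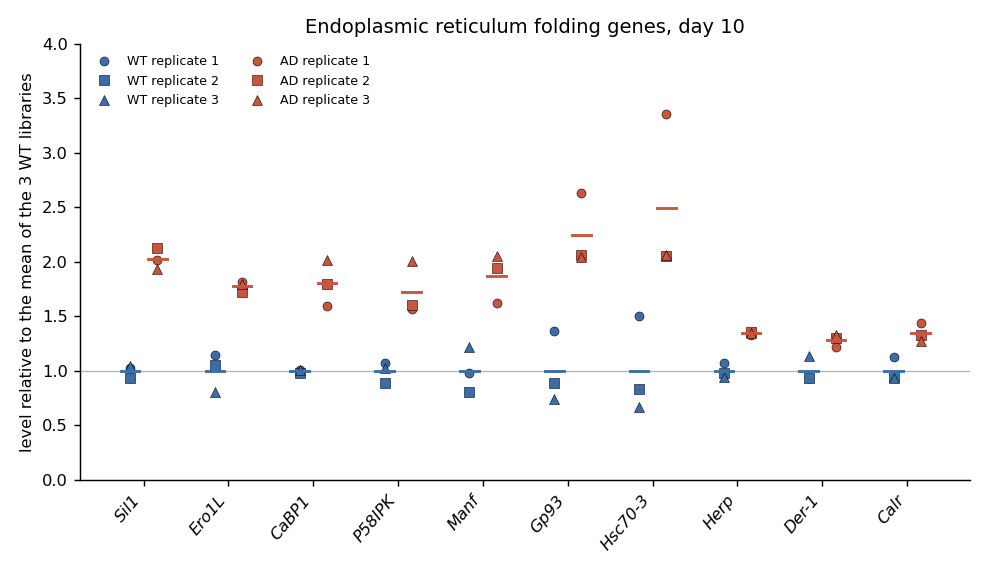
The y axis gives the level of 10 ER folding genes in each of the 6 libraries relative to the mean of the 3 WT libraries, on a linear axis from 0, with marker shape for the replicate number and a short line for each group mean. Every AD point lies above every WT point of the same gene, and *Hsc70-3* and *Gp93* have the widest spread within a genotype. The 10 genes were picked with their values known. AD libraries lay above WT libraries in 7 of the 13 tested ER stress genes and in 8 of the longer list of 37 (3.63% of all tested genes).

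Of the glycolytic list, *Ldh* rose and the others did not pass. *Ldh* (chr3L:6259105-6262694, minus strand), lactate dehydrogenase, which interconverts pyruvate and lactate, had normalized counts of 279, 242, and 303 in WT heads and 2538, 4795, and 4968 in AD heads. Every AD library was far above the WT libraries, and AD replicate 1 was the lowest of them. The log2 fold change was 3.90 ± 0.66 (FDR 0.0157), and *Ldh* was also past the threshold in the second processing run alone (FDR 0.0427). It passed in 1 of the 6 fits that each left out a day 10 library (FDR 0.0275 to 0.119). The remaining 13 of the 14 glycolytic genes tested did not pass, and their estimates lay between -0.15 and 0.18. *MFS3* (chr2L:1143201-1147395, plus strand), a transporter of the major facilitator superfamily, had 88.4, 94.5, and 92.4 in WT heads and 478, 657, and 652 in AD heads (2.70 ± 0.43, FDR 0.0122).

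Cytochrome P450 enzymes oxidize hormones, pheromones, and toxins. In family 6 of these enzymes, 2 of 21 tested genes were higher and 1 was lower past the threshold, while the median was 0.09. Over all tested genes, 0.0859% were higher past it and 0.0859% were lower. *Cyp6a2* (chr2R:6779749-6781491, minus strand), known for its part in insecticide resistance, had 33.3, 35.6, and 24.2 normalized counts in WT heads and 731, 558, and 655 in AD heads. This was the highest fold change among the higher genes past the threshold, at 4.36 ± 0.61 (FDR 0.00373). *Cyp6w1* (chr2R:6173684-6176195, plus strand) had 1179, 1392, and 1165 in WT heads and 4002, 4595, and 5311 in AD heads (1.90 ± 0.34, FDR 0.0191). *Cyp6a16* (chr2L:5620615-5623762, minus strand) went the other way, with 45.6, 34.5, and 33.3 in WT heads against 0.661, 2.58, and 0 in AD heads (-5.08 ± 0.90, FDR 0.0191). The AD libraries held 3 raw counts of *Cyp6a16* in all against 120 in WT libraries, a ratio of 40.9 with an exact 95% interval from 13.7 to 201, which covers counting error only. In P450 families 4, 9, and 12, none of 32 tested genes passed in edgeR or DESeq2, and the median was -0.009. Of the 32, 2 had an unadjusted p under 0.05 in edgeR (3.05% of all tested genes). Of 31 glutathione S-transferase genes 0 passed in edgeR or DESeq2, and 0 had an unadjusted p under 0.05 in edgeR.

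*Cyp6a2*, *Cyp6w1*, and *Strica* lie close together on chromosome arm 2R. The stretch of 761 kb from *Strica* to *Cyp6a2* held 52 tested genes, of which these 3 passed the threshold and 5 had an unadjusted p under 0.05. Over all tested genes these shares were 0.172% and 3.05%, and 9 of the 2127 tested genes of the arm passed. The ends of the stretch were set by the genes that passed, so its counts are a description. *Strica* (chr2R:6020311-6023144, minus strand), a caspase with a long prodomain rich in serine and threonine, had 29.2, 15.6, and 34.9 normalized counts in WT heads and 227, 124, and 95.1 in AD heads (2.49 ± 0.48, FDR 0.0341). *Act42A*, a cytoplasmic actin whose start lies 6.4 kb from that of *Strica*, was chosen for its position after its values were seen. It had 642, 530, and 627 in WT heads and 918, 926, and 947 in AD heads, with a log2 fold change of 0.63 ± 0.16 that did not pass (FDR 0.221). *Cyp6a2* lies inside *Epac* on the same strand, and *Epac* did not pass, with a mean of 3064 normalized counts in WT heads and 3443 in AD heads.

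The gene with the lowest FDR was *w* (chrX:2790599-2796466, minus strand), the transporter for eye pigment precursors. It had 1156, 1261, and 1100 normalized counts in WT heads and 4030, 4218, and 3760 in AD heads (1.77 ± 0.19, FDR 1.14e-04). A shortened copy of *w* is the usual marker in fly transgene vectors, and these counts do not tell that copy from the native gene. The libraries follow their labels in this gene without overlap. The other 14 tested eye pigment genes did not pass, with estimates of at least -0.33.

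*CG14329* (chr3R:17609359-17610533, plus strand) had 8.16, 16.7, and 12.1 normalized counts in WT heads and 208, 177, and 140 in AD heads (3.84 ± 0.67, FDR 0.0191). *CG8620* (chr3L:7158099-7158874, plus strand) had 70.1, 55.6, and 86.4 in WT heads and 497, 586, and 746 in AD heads (3.11 ± 0.57, FDR 0.0233). It passed the threshold in the second processing run alone as well (FDR 0.0427), but in 0 of the 6 fits that each left out a day 10 library (FDR 0.057 to 0.173). *LysS*, a lysozyme expressed in the gut, had 99.3, 12.2, and 22.7 in WT heads and 660, 642, and 783 in AD heads. The groups did not overlap, but WT replicate 1 was well above the other WT libraries, and the log2 fold change of 3.84 ± 0.91 did not pass in edgeR (FDR 0.138), while in DESeq2 it passed (log2 fold change 3.94, FDR 0.0124).

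**Figure D3:**
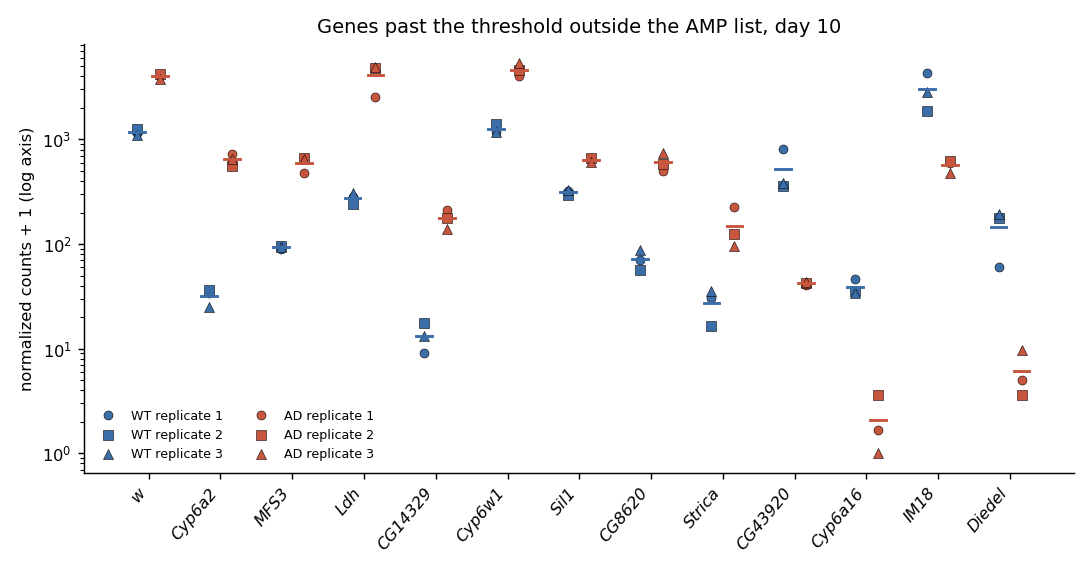
The y axis gives normalized counts plus 1 on a log axis for the 13 genes past the threshold outside the AMP list, for the 3 WT and 3 AD libraries at day 10, with marker shape for the replicate number and a short line for each group mean. The AD and WT points of each gene do not overlap, from *Cyp6a16* near 0 in AD heads to *Ldh*, with 2538 to 4968 in AD heads.

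The lower genes outside the AMP list were *CG43920*, *IM18*, *Diedel*, and *Cyp6a16*, the last given above. *CG43920* (chr2R:17598845-17599253, minus strand) had 810, 358, and 380 normalized counts in WT heads and 39.7, 41.3, and 42 in AD heads. The AD libraries were nearly identical and far under the WT libraries, with a log2 fold change of -3.66 ± 0.60 (FDR 0.0137). The gene lies wholly opposite *Smurf*, which had a mean of 1561 in WT heads and 1690 in AD heads and did not pass. *IM18* (chr2R:23600914-23601773, minus strand), an immune-induced peptide of the hemolymph, had 4318, 1886, and 2814 in WT heads and 594, 622, and 473 in AD heads (-2.42 ± 0.47, FDR 0.0359). *Diedel* (chr3R:29493852-29494267, plus strand), a secreted cytokine that restrains the IMD pathway, had 59.2, 177, and 194 in WT heads and 3.97, 2.58, and 8.65 in AD heads (-4.81 ± 0.97, FDR 0.0392). Here WT replicate 1 was the lowest WT library, in contrast to *IM18* and *CG43920*, where it was the highest.

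*PGRP-SC2*, an amidase that degrades peptidoglycan and dampens the IMD response, was just outside the threshold. It had 1863, 759, and 464 normalized counts in WT heads and 146, 96.8, and 30.9 in AD heads (-3.46 ± 0.71, FDR 0.0501). With the replicate number as a block the FDR was 0.0327, and with the processing run as covariate it was 0.0068. In the list of peptidoglycan recognition proteins and GNBPs 0 of 16 tested genes passed in edgeR and 1 in DESeq2. In edgeR, 3 had an unadjusted p under 0.05 with a lower level (1.24% of all tested genes). The receptors *PGRP-LC* and *PGRP-LE* had estimates of -0.22 and -0.02. In the list of Bomanins and other immune-induced peptides, *IM18* was the 1 of 19 tested genes past the threshold (0.0859% of all tested genes were lower past it). Of the 19 estimates, 18 were negative (51.9% of all tested genes). *edin*, an infection-induced peptide, had 122, 23.4, and 28.8 in WT heads and 1.32, 3.87, and 0 in AD heads (-5.09 ± 1.38, FDR 0.319). In DESeq2, *edin* passed with an FDR of 0.0011, and 2 lower genes of that list passed. *Tep1*, a thioester-containing opsonin, had 282, 10, and 3.03 normalized counts in WT heads and 4.63, 3.87, and 8.65 in AD heads, so that its estimate of -4.11 rested on WT replicate 1. It passed in DESeq2 (FDR 0.0432) and not in edgeR (FDR 0.63).

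The Turandot genes encode secreted factors that are induced by stress and by JAK-STAT signalling. The list of these genes and JAK-STAT components had 11 tested members, of which 5 had an unadjusted p under 0.05, all lower in AD heads (1.24% of all tested genes were lower at that level), and 0 passed the threshold in edgeR or DESeq2. *TotA* had 7384, 7426, and 19361 normalized counts in WT heads and 2441, 2317, and 4800 in AD heads (-1.84 ± 0.57, FDR 0.598). *TotC* had 3908, 3455, and 8064 in WT heads and 438, 664, and 1388 in AD heads (-2.63 ± 0.78, FDR 0.478). *TotM* had 1088, 990, and 1980 in WT heads and 89.9, 281, and 372 in AD heads (-2.46 ± 0.76, FDR 0.581). All AD libraries were under all WT libraries in these genes and in *TotX* and *TotB* (2.86% of all tested genes). WT replicate 3 held the highest level of each of the 5 genes. *TotB* was named after its values were seen. The ligand *upd3* and the signalling genes *Stat92E*, *hop*, *dome*, and *Socs36E* did not pass.

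Of the 14 AMP genes, *DptA*, *AttC*, *Drs*, *DptB*, and *Mtk* passed the threshold and the other 9 did not, where 0.0859% of all tested genes were lower past it. The median log2 fold change of the 14 was -2.04. The AD libraries lay under the WT libraries in 12 of them (2.86% of all tested genes). *DptA*, a diptericin active against Gram-negative bacteria, had 8445, 3287, and 5113 normalized counts in WT heads and 556, 686, and 851 in AD heads (-3.01 ± 0.43, FDR 0.00373). *Drs*, the antifungal drosomycin, had 6011, 778, and 1736 in WT heads and 223, 213, and 305 in AD heads (-3.53 ± 0.64, FDR 0.0218). WT replicate 1 was the highest WT library in both. *Def*, the fly defensin, had 418, 583, and 567 in WT heads and 107, 705, and 699 in AD heads, and it was lower in the replicate 1 pair alone. With the processing run as covariate, 8 AMP genes passed, *CecA1*, *CecB*, and *CecC* being added (FDR 0.0149, 0.0052, and 0.0123). In the fit on the 6 libraries alone, 0 AMP genes passed, and 0 passed in the second run alone. *CecA1* with *CecA2* and *AttA* with *AttB* are similar in sequence and may share reads.

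The receptors and signal transducers of both immune pathways were listed apart from their targets. Of 13 tested IMD pathway genes 0 passed in edgeR or DESeq2, 1 had an unadjusted p under 0.05 in edgeR (3.05% of all tested genes), and the median was -0.07. That gene was *imd*, the adaptor of the pathway, with 361, 318, and 330 normalized counts in WT heads and 421, 382, and 458 in AD heads (0.32 ± 0.12, FDR 1.0). Of 15 tested Toll pathway genes 0 passed in edgeR or DESeq2, 0 had an unadjusted p under 0.05 in edgeR, and the median was -0.001.

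**Figure D4:**
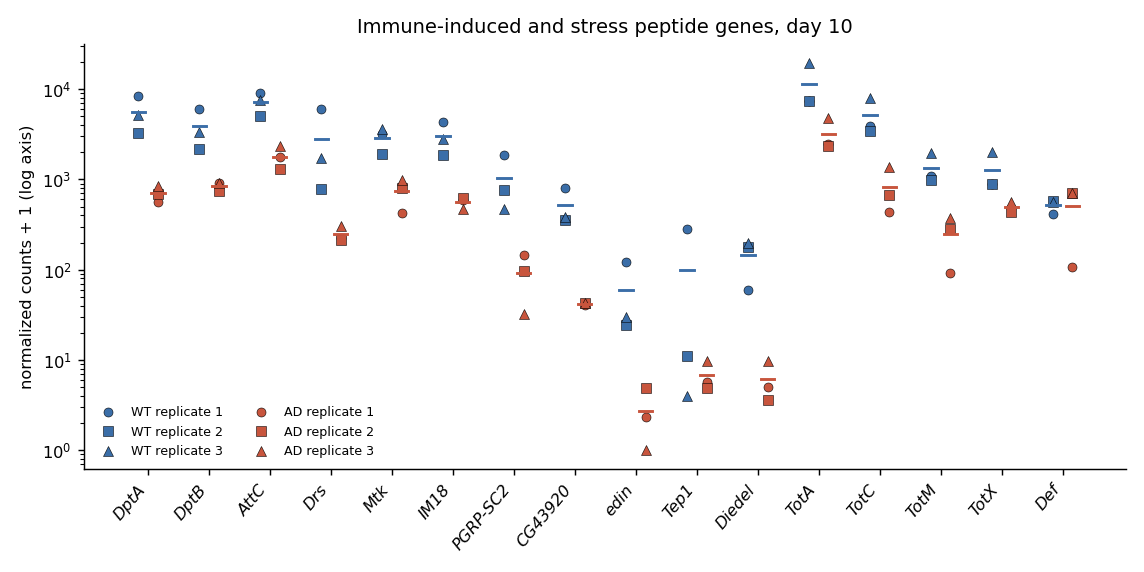
The y axis gives normalized counts plus 1 on a log axis for 16 immune-induced and stress-induced genes in the 6 libraries at day 10, with marker shape for the replicate number and a short line for each group mean. WT replicate 1 is the highest WT library for *DptA*, *Drs*, *IM18*, *PGRP-SC2*, *edin*, and *Tep1*, WT replicate 3 for the Turandot genes, and AD replicate 1 is the lowest library for *Def*.

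Of the 34 gene class lists examined, 28 held no gene past the threshold, and 26 held at most 1 gene with an unadjusted p under 0.05. The lists for phototransduction, the circadian clock, synaptic vesicle release, nicotinic receptors, and neuropeptides had 90 distinct tested genes, of which 1 had an unadjusted p under 0.05, where 3.05% of all tested genes did. That gene was *Proc*, the precursor of the neuropeptide proctolin, with 950, 1056, and 1302 normalized counts in WT heads and 1317, 1811, and 1954 in AD heads (0.62 ± 0.20, FDR 0.682). Among 12 tested orthologs of amyloid processing genes, *aph-1*, a subunit of the γ-secretase complex, had an estimate of 0.33, and the neprilysin *Nep1*, a peptidase, had an estimate of -0.35, both with an FDR of 1.0. *Appl*, the fly ortholog of the amyloid precursor protein, had an estimate of -0.12. *ref(2)P*, the p62 receptor of selective autophagy, had 4656, 4278, and 4379 in WT heads and 5933, 5355, and 5850 in AD heads, without overlap (0.36 ± 0.11, FDR 0.562). The flight muscle actin *Act88F* had 98, 62.3, and 120 in WT heads and 39.7, 25.8, and 38.3 in AD heads (-1.42 ± 0.45, FDR 0.63).

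Some genes were near 0 in one genotype. *CG33502*, on the X chromosome, had 739, 638, and 646 normalized counts in WT heads and 0, 1.29, and 1.24 in AD heads, a ratio of 1067 with an exact 95% interval of counting error from 295 to 8820. Its FDR was 0.843, and at days 3 and 30 it was high in 1 library of each genotype and under 3 in the others. The high libraries were replicate 1 of WT and AD at day 3 (609 and 422), WT replicate 2 of day 30 (419.6), and the library labelled AD replicate 3 of day 30 (943). At day 20 it was at 1.27 or less in all 6 libraries. *Vha100-4*, *CG32437*, and *CG43168* had 0 counts in all 3 WT libraries at day 10. Against a floor of 3 counts over the WT group they were at least 20.5-fold, 59-fold, and 14.7-fold higher in AD heads, and none passed the threshold. These 4 genes were singled out after their values were seen.

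Differences were also computed within each processing run. On the log2 CPM scale, the AD minus WT difference of the first run pair and the mean of the second run pairs were 3.18 and 4.16 for *Ldh*, 4.38 and 4.27 for *Cyp6a2*, 2.41 and 2.78 for *MFS3*, and 0.98 and 1.03 for *Sil1*. The first run pair gave the larger difference in size for all 14 AMP genes, with -4.74 and -2.18 for *Drs* and -3.92 and -2.42 for *DptA*. It did so for 3 of the 4 lower genes outside that list, with -2.86 and -2.08 for *IM18*, while *Diedel* had -3.36 and -4.75. Among the 9 higher genes it was larger in 4. With the second run alone, which leaves 2 libraries per group, 4 genes passed, namely *w*, *Ldh*, *Gp93*, and *CG8620*, and none of the lower genes did. With the processing run as covariate 16 higher genes passed in place of 9. The 7 added genes were *S-Lap2*, *S-Lap3*, *S-Lap4*, *CG9133*, *CG12861*, *CG4836*, and *CG8701*, which were at 72.7 to 445 normalized counts in AD replicate 1 and at 15.7 or fewer in the other 5 libraries. With the replicate block, *S-Lap4* and *CG9133* were among the genes that passed (FDR 0.0312 and 0.0055). Without AD replicate 1, 4 higher genes passed, 0 lower genes outside the AMP list, and 1 AMP gene. Without WT replicate 1 the counts were 1, 0, and 1. *w* passed with each of the 6 libraries left out, and *Cyp6a2* (not without WT replicate 1) and *DptA* (not without AD replicate 2) passed with 5 of the 6. Of the other 15 genes past the threshold, 9 passed in 0 of these 6 fits and 6 passed in 1 to 3 of them. The 9 were *CG14329*, *Cyp6a16*, *Cyp6w1*, *Sil1*, *CG8620*, *Strica*, *IM18*, *Mtk*, and *Diedel*. The 6 were *MFS3*, *AttC*, *CG43920*, *Ldh*, *Drs*, and *DptB*.

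The same comparison at the other ages drew on libraries not used at day 10. All 9 higher genes had a positive difference at days 3, 20, and 30, and 3, 5, and 1 of them passed the threshold on those days. The library labelled AD day 30 replicate 3 had 1512 normalized counts of *w*, against 1379 to 1505 in WT heads of that day and 3028 and 3092 in the other AD libraries, which goes against its label. Without it, 6 of the 9 passed at day 30. *Cyp6a2* was past the threshold on all 4 days, with log2 fold changes of 3.99, 4.36, 3.83, and 3.42 at days 3, 10, 20, and 30. *Sil1* had 0.45 at day 3 and 1.02 at both day 10 and day 20, and *CaBP1* had 0.22, 0.85, and 0.96. *Strica* had 0.82, 2.49, 2.03, and 0.68 over the 4 days.

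The lower genes of day 10 did not pass the threshold on any other day. Of the 4 outside the AMP list, 0 passed at days 3, 20, and 30. All 4 were lower in estimate at day 3, and 1 of 4 (*Diedel*) was at day 20 and at day 30. Without the library that goes against its label, all 4 were lower in estimate at day 30, between -1.07 and -0.06, and 0 passed. At day 20, *CG43920* had 1045, 470, and 474 normalized counts in WT heads and 782, 1307, and 712 in AD heads, and *IM18* had 9613, 4438, and 2550 in WT heads and 6537, 7259, and 5974 in AD heads. In both the groups overlapped. The difference between days was tested directly. The genotype difference at day 10 was distinct from that at day 20 for *DptA* and *AttC* alone (2 genes, 0.0191% of those tested), and the same genes passed against day 30 (0.0191%). At an unadjusted p under 0.05 the shares were 1.08% against day 20 and 1.98% against day 30. Without the library that goes against its label, 0 genes passed against day 30 in edgeR. With all libraries, the interaction of *CG43920* was -4.15 against day 20 and -4.21 against day 30, with FDRs of 0.112 and 0.122. With the processing run as covariate these FDRs were 0.0168 and 0.0209. Against day 3, 0 genes passed in edgeR, where 305 had an unadjusted p under 0.05 (2.91%), and 3 passed in DESeq2. Those 3 were *CG43920*, *CG32437*, and *betaTub85D*, and the last 2 had 0 counts in all 3 WT libraries at day 10. For none of the 9 higher genes did the difference at day 10 pass against another day in edgeR.

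**Figure D5:**
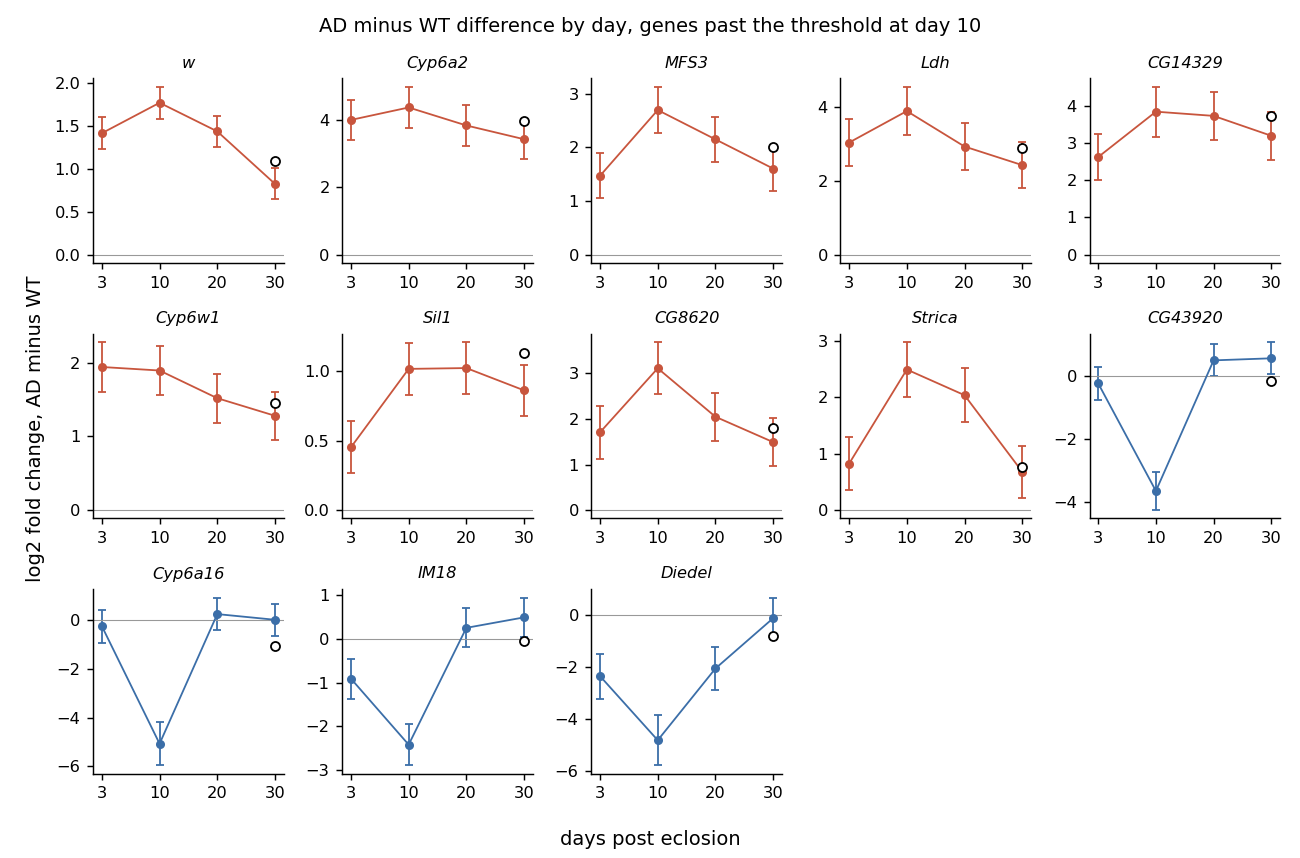
Each panel gives the log2 fold change of AD against WT heads (y axis, error bars are SE) at days 3, 10, 20, and 30 post eclosion (x axis) for a gene past the threshold at day 10 outside the AMP list, and open circles give day 30 without the library that goes against its label. The y axes differ between panels. The 9 higher genes (red) stay above 0 on every day, and *CG43920*, *Cyp6a16*, and *IM18* (blue) lie between 0.03 and 0.55 at days 20 and 30 with all libraries, while the 4 lower genes (blue) lie between -1.07 and -0.06 at day 30 without that library.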

How the data were processed

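RNA-Seq of male fly heads was used as deposited. Per the labels and the paper, the authors filtered reads with SOAPnuke, mapped them with HISAT2 2.0.4 to the release 6 genome, and estimated the deposited expected counts with RSEM (version not given in the sources used here). The deposited FPKM values are the same estimates per gene length and library size. Unlisted genes were taken as 0. Symbols and positions (counted from 1) came from the release 6 annotation, with 13550 of 13700 identifiers found. Expected counts were rounded to whole numbers. edgeR 4.0.16 under R 4.3.3 was used for the fit (TMM, filterByExpr, 24 libraries in 8 groups, 16 residual degrees of freedom, common biological coefficient of variation 0.314). Genes counted as past the threshold at FDR under 0.05 (Benjamini-Hochberg, 10479 genes) with log2 fold change above 1 in size. Normalized counts are TMM-scaled to the mean library size, and log2 CPM used a prior count of 2. Standard errors are the estimate divided by the root of F. Reads carried no molecular identifiers, and intervals therefore cover counting error only.

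Named genes were those past the threshold, those past it with the run covariate or block (at most 15), up to 10 per direction with non-overlapping groups, up to 4 examples per list with an unadjusted p under 0.05, and those differing between days. Other genes were named for their role in a list or after their values were seen. The members and lists were chosen with earlier results of these data known. Deviations from group means correlated between same-numbered AD and WT libraries at 0.761, 0.319, and 0.539, each over the limit of 0.1. The main fit held no term for such a pairing, which entered only as the replicate block among the alternatives. AD replicate 2 correlated more with WT replicate 3 (0.339) than with WT replicate 2, and the other different-numbered values were -0.611 to 0.172. The numbers come from the sample titles, and the shared run of replicate 1 was not separated from the pairing. Chi-square per gene between replicates was 12.4 to 327, well above the value of about 1 that sampling noise would give, so no pair was merged. Alternatives were DESeq2 1.42.0, limma 3.58.1 on log2(FPKM + 1) and log2(FPKM + 0.1), RLE normalization, other filters, the 6 libraries alone, the replicate block, the run covariate, the second run alone, and leaving out libraries. The fits were tested on simulated data. Python 3.11.15 was used for summaries.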

Additional observations from a re-analysis of the deposited data

Results flagged for a closer look

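The genotype difference of *DptA* and of *AttC*, both AMP genes, was unlike that of later days by a test of the interaction in edgeR. The log2 fold change of *DptA* at day 10 was 3.70 below that at day 20 (interaction -3.70, FDR 0.028) and 3.76 below that at day 30 (interaction -3.76, FDR 0.0164). For *AttC* the interactions were -2.81 (FDR 0.028) and -3.05 (FDR 0.0164). *DptA* had 13504, 8823, and 5804 normalized counts in WT heads at day 20 and 13321, 19017, and 12898 in AD heads, so that the groups overlapped there. Without the library labelled AD day 30 replicate 3, which goes against its label, 0 genes passed against day 30 in edgeR, with 286 at an unadjusted p under 0.05. The interaction was then -3.35 for *DptA* and -2.74 for *AttC*, with an FDR of 0.0714 for each.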

How the results depend on the processing

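Main counts were 9 higher genes, 4 lower genes outside the AMP list, and 5 lower AMP genes, and the cause of each change was not tested. Leaving out each day 10 library gave 1 to 4, 0 to 1, and 0 to 4. Leaving out AD day 30 replicate 3 gave 11, 5, and 5. DESeq2 gave 19, 10, and 9, DESeq2 with the run covariate 24, 11, and 11, DESeq2 on the 6 libraries 21, 13, and 8, and the 6 libraries with replicate block 22, 13, and 8. The DESeq2 counts over the 8 groups include genes near 0. *betaTub85D* passed (FDR 4.09e-04) with 61.5, 28.4, and 0 normalized counts in AD heads and 0 in all WT libraries. *Acp26Aa* passed (FDR 0.0389) with 2.04, 1.11, and 0 in WT heads and 0 in all AD libraries. The 6 libraries alone gave 8, 2, and 0, the run covariate 16, 5, and 8, the run covariate without AD day 10 replicate 1 4, 0, and 1, and the second run alone 4, 0, and 0. limma on log2(FPKM + 1) gave 7, 2, and 3, and on log2(FPKM + 0.1) 10, 4, and 4. RLE normalization and no filter on low counts gave the main counts, a mean of at least 10 counts gave 9, 5, and 5, and the FDR limit alone 13, 4, and 5. With the replicate block the counts were 11, 5, and 5, and all 18 genes passed, as they did in DESeq2 over the 8 groups.

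The counts for the difference at day 10 against days 3, 20, and 30 were 0, 2, and 2. They were 3, 17, and 22 in DESeq2, 3, 19, and 23 in DESeq2 with the run covariate, 9, 10, and 7 with the run covariate, 0, 3, and 0 with the run covariate without AD day 10 replicate 1, 2, 3, and 2 with the replicate block, 0, 5, and 0 in the second run alone, and 0, 0, and 0 with only the groups compared. Against day 3, the 9 genes with the run covariate were *S-Lap2*, *S-Lap3*, *S-Lap4*, *S-Lap7*, *CG9133*, *CG8701*, *CG12861*, *CG4836*, and *loopin-1*. With the block they were *S-Lap4* and *CG9133*. The male reproductive tract markers summed to 6060 normalized counts in WT day 3 replicate 1, where *S-Lap3* was at 1599. Their sum was 1342 in AD day 3 replicate 2 and 3.48 to 80.7 in the other day 3 libraries. The part of these libraries was not tested. Leaving out each library gave 0 to 4 against day 20 and 0 to 2 against day 30.

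None of the 18 genes changed direction in any setting. Leaving out each day 10 library in turn, estimates that changed direction without AD day 10 replicate 1 ranged from -4.42 to 8.95 for *S-Lap2*, -3.05 to 9.05 for *S-Lap3*, -1.53 to 9.07 for *S-Lap4*, -3.38 to 8.47 for *CG9133*, -1.80 to 7.63 for *CG12861*, -3.26 to 7.63 for *CG4836*, -4.66 to 8.44 for *CG8701*, -3.12 to 5.18 for *dj*, and -0.39 to 0.43 for *Def*. *Def* was also positive in the second run alone (0.29) and with the run covariate without that library (0.26), and *dj* was then at -0.76. The settings added after the data were seen are DESeq2 on the 6 libraries, DESeq2 with the run covariate, the block on the 6 libraries, the run covariate without AD day 10 replicate 1, and leaving out libraries of other days. Depth limits genes near 0, such as *Cyp6a16* with 3 counts in AD heads. Leaving out a library leaves 2 in its group, whose spread is assumed to be like that of the other groups.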

Other observations

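Some genes outside the lists also had AD and WT libraries that did not overlap. Over all tested genes, every AD library was above every WT library in 3.63% and below in 2.86%. The genes given here were picked after their values were seen, and none passed the threshold. *Ku80*, a subunit of the DNA end-binding Ku complex, had 201, 162, and 156 normalized counts in WT heads and 329, 298, and 321 in AD heads (log2 fold change 0.86 ± 0.20, FDR 0.117). *La*, an RNA-binding protein, had 1136, 1057, and 949 in WT heads and 1738, 1505, and 1637 in AD heads (0.63 ± 0.16, FDR 0.241). *Sam-S*, which makes S-adenosylmethionine, had 5377, 4729, and 5396 in WT heads and 7764, 6972, and 7028 in AD heads (0.49 ± 0.11, FDR 0.0733). *CG6912* and *CG6654* were lower in estimate (-0.83 and -0.79), and their groups did not overlap. *CG15423* had 83.7, 40, and 92.4 in WT heads and 29.7, 6.46, and 13.6 in AD heads (-2.07 ± 0.63, FDR 0.558).

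On chromosome arm 3R, *CG14329*, *AttD*, and *CG43175* lie within 21.4 kb by their starts. *AttD*, an attacin, had 1588, 191, and 191 normalized counts in WT heads and 23.8, 31, and 49.4 in AD heads (-4.29 ± 1.0, FDR 0.136), and *CG43175* had 193, 15.6, and 28.8 in WT heads and 0, 6.46, and 2.47 in AD heads (-4.92 ± 1.17, FDR 0.138), while *CG14329* rose. *AttD* and *CG43175* did not pass in edgeR and passed in DESeq2 (FDR 5.47e-04 and 3.61e-04).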
